A study of Mus musculus with 2 samples.

Results

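Endothelial nuclei from outside the glomerulus were chosen from 2 mouse kidney libraries, 185 in the nephrectomy library and 190 in the sham library, 375 of 5563 nuclei that met the depth and mitochondrial limits and of 6383 barcodes in all. A nucleus was chosen if it had at least 1000 unique molecular identifiers (UMIs, each standing for 1 captured transcript) and at most 10% of them from mitochondrial genes. It also had to hold UMIs of at least 3 of the genes Pecam1, Emcn, Flt1, Kdr, Ptprb, Cdh5, Egfl7, Adgrl4 and Tek, together at least 0.3% of its UMIs. Nuclei with at least 2 UMIs of Ehd3, a glomerular endothelial gene, and more of it than of Plvap were left out, as were nuclei with over 0.1% of UMIs from the proximal tubule genes Slc34a1, Slc13a1 and Slc5a12. The levels of these 14 genes therefore chose the nuclei and are given below as a description.

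Endothelial cells line every blood vessel, and in the kidney they differ along its course. Arteries and arterioles feed the glomerulus, whose outflow enters the peritubular capillaries of the cortex, thin fenestrated vessels that take up what the tubule reabsorbs. Descending vasa recta carry blood into the medulla behind a continuous wall with water and urea channels, and ascending vasa recta return it through a fenestrated, vein-like wall. Loss of peritubular capillaries is a known feature of chronic kidney disease.

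The nephrectomy library came from male T1+/+ mice aged 11 weeks that underwent 5/6 nephrectomy: the right kidney was taken out and, a week later, both poles of the left were tied off. The sham library came from mice whose flanks were opened and closed with both kidneys left in place. The age, sex and genotype are stated for the operated mice and not separately for the sham mice. Kidneys were taken 4 weeks after surgery and frozen, and nuclei were captured on the 10x Genomics Chromium system. The labels do not say how many animals entered a library or which part of the remnant was used. The series is titled for the chondroitin-initiating enzyme Csgalnact1 and versican in remnant kidney fibrosis. With 1 library per operation there is no replicate. A gene is called higher or lower only where its ratio passed 1.5-fold, and a ratio is always nephrectomy over sham. Intervals are therefore 95% intervals that cover counting error only, no p-value is given, and surgery, animal and library preparation cannot be told apart.

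The libraries held 28284727 UMIs over 3299 barcodes after nephrectomy and 21365116 UMIs over 3084 barcodes after sham surgery. The chosen nuclei held 900339 UMIs in the nephrectomy library and 664090 in the sham library. Their median depth was 3628 UMIs (range 1106 to 44502) after nephrectomy and 2902 UMIs (1036 to 18714) after sham surgery. The nephrectomy nuclei thus held more UMIs at the median, and a few of them held far more. Levels below are UMIs per 1000000 UMIs of the chosen nuclei of a library (CPM), which takes out the difference in total depth. Of the barcodes, 2 occurred in both libraries, and 0 of these were among the chosen nuclei.

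The nuclei fitted their label, apart from the mixed ones described below. The 15 endothelial marker genes that the rule did not use, among them Tie1, Robo4 and Erg, summed to 10356 CPM in nephrectomy nuclei and 10602 CPM in sham nuclei, and all 185 and all 190 nuclei held at least 1 of their UMIs. In all other nuclei the same genes summed to 585 CPM after nephrectomy and 486 CPM after sham surgery. At least 1 of their UMIs was found in 64.6% of these nephrectomy nuclei and 56.9% of these sham nuclei. These other nuclei, called the nuclei not chosen below, still held some endothelium. Among them were 94 nephrectomy and 78 sham nuclei left out by the proximal tubule limit alone. They also held 13 and 8 glomerular endothelial nuclei. Plvap, which forms the diaphragms of fenestrae and was part of the rule, stood at 850 CPM after nephrectomy and 1050 CPM after sham surgery. No UMI of Plvap was found in 28 nephrectomy nuclei and 35 sham nuclei. The rule also let in nuclei with an Ehd3 UMI, 53 after nephrectomy and 62 after sham surgery.

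The 9 endothelial genes of the rule all had ratios below 1, but none reached a 1.5-fold difference. These levels are a description because they chose the nuclei. Adgrl4, an adhesion receptor, was at 3102 CPM after nephrectomy and 3222 CPM after sham surgery, a ratio of 0.963. Flt1, the VEGF receptor that acts as a trap for the ligand, was at 2381 CPM after nephrectomy and 2977 CPM after sham surgery, a ratio of 0.800. The other ratios lay between 0.742 for Egfl7 and 0.956 for Tek. Without the mixed nuclei described below the 9 ratios ran from 0.810 to 1.06, so not all of them stayed below 1. At the limit on endothelial genes, the 5 chosen nuclei nearest to it had 0.308% to 0.369% of their UMIs from these genes after nephrectomy and 0.338% to 0.414% after sham surgery. The 5 nearest nuclei left out had 0.169% to 0.289% after nephrectomy and 0.131% to 0.255% after sham surgery. At the proximal tubule limit, the nearest chosen nuclei had 0.0945% to 0.0984% after nephrectomy and 0.0931% to 0.0984% after sham surgery, with 94 and 78 nuclei left out by that limit alone, the nearest at 0.1004% to 0.106% after nephrectomy and 0.101% to 0.106% after sham surgery.

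**Figure D1:**
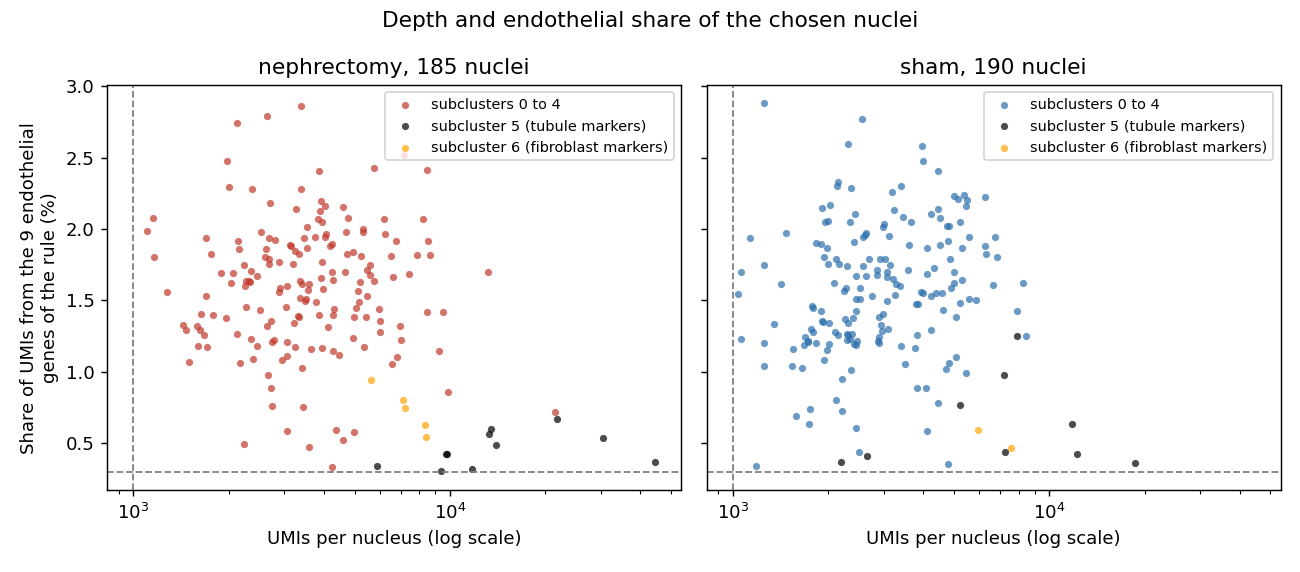
Each point is a chosen nucleus, by its UMIs (log scale) and by the share of its UMIs from the 9 endothelial genes of the rule, with the nephrectomy library on the left and the sham library on the right. Dashed lines mark the limits of 1000 UMIs and 0.3%. The nuclei of subclusters 5 and 6, which carry tubule or fibroblast markers, lie at high depth and low endothelial share, and the deepest nucleus has 44502 UMIs in the nephrectomy library and 18714 in the sham library.

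RNA of other cell types was present in the chosen nuclei and differed between the libraries. The 12 proximal tubule markers summed to 1795 CPM after nephrectomy and 4295 CPM after sham surgery, and they exceeded 0.5% of UMIs in 10 nephrectomy nuclei and 64 sham nuclei. The 6 podocyte markers summed to 2199 CPM after nephrectomy and 495 CPM after sham surgery. Of the nephrectomy UMIs of the podocyte gene Magi2, 1195 of 1515 lay in 1 nucleus. The 7 principal and intercalated cell markers stood at 692 CPM after nephrectomy and 107 CPM after sham surgery. The markers thus differed in both directions. The 8 fibroblast markers stood at 157 CPM and 81.3 CPM in the nephrectomy and sham libraries, and the 8 mural markers at 40.0 CPM after nephrectomy, where Rgs5 and Myh11 were at 0, and 58.7 CPM after sham surgery. The phagocyte markers were at 58.9 CPM after nephrectomy, with Ptprc, Adgre1 and Mrc1 at 0, and at 81.3 CPM after sham surgery, with Adgre1 at 0. Lymphocyte markers were at 22.2 CPM and 7.53 CPM in the nephrectomy and sham libraries, with Cd3e, Themis, Ms4a1, Cd79a and Gzma at 0 in both. The lymphatic markers were at 192 CPM after nephrectomy and 277 CPM after sham surgery, with Lyve1 at 0 in both. The part of RNA from other cells in the results below was not tested beyond the settings given beside them.

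The chosen nuclei made up 6.36% (exact binomial interval 5.50 to 7.31) of the nephrectomy nuclei that met the depth and mitochondrial limits and 7.16% (6.20 to 8.20) of the sham nuclei. The difference was -0.795 percentage points (-2.13 to 0.525), so no difference in share was detectable at this number of nuclei. Its sign changed under a filter on markers of other types. Without nuclei that held over 0.5% of UMIs from markers of another type, 20 after nephrectomy and 70 after sham surgery, it was 1.15 points. Proximal tubule markers alone passed that limit in 10 nephrectomy and 64 sham nuclei. The part of free tubule RNA in this change of sign was not tested. The share counts captured nuclei and not vessels in the tissue.

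Clustering of the 375 nuclei by their own variable genes gave 7 subclusters, which were compared with vessel markers. Subcluster 0, with 72 nephrectomy and 84 sham nuclei, was like peritubular capillaries. It led in the natriuretic peptide clearance receptor Npr3, at 547 CPM against 69.3 CPM in the other subclusters, and in the IGF-binding proteins Igfbp5 and Igfbp3. It came to 38.9% of the chosen nuclei after nephrectomy and 44.2% after sham surgery, a difference of -5.29 points (-15.1 to 4.65). Subcluster 1, with 38 nephrectomy and 23 sham nuclei, and subcluster 3, with 14 and 31, were like ascending vasa recta or veins. The venous transcription factor Nr2f2 and the small proteoglycan Bgn were raised in both subclusters. Tll1 stood in subcluster 1 at 1607 CPM after nephrectomy and 1214 CPM after sham surgery. Igf1 was at 829 CPM after nephrectomy and 480 CPM after sham surgery in subcluster 3, while in subcluster 1 it was at 629 CPM in the nephrectomy nuclei and 107 CPM in the sham nuclei. Subcluster 2, with 28 nephrectomy and 23 sham nuclei, led in Sdk1, Plk2, Pcdh17 and Gpihbp1 and was left unnamed. The vessel markers were left out of the clustering but named the capillary and vein-like subclusters, and differences between these were not tested.

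Subcluster 4, with 17 nephrectomy and 18 sham nuclei, held 12 of the 14 arterial markers and 5 of the 7 descending vasa recta markers at a raised level. Sox17, a transcription factor of arterial identity, was at 535 CPM there, the Notch ligand Jag1 at 511 CPM and the water channel Aqp1 at 495 CPM. All 12 UMIs of the urea transporter Slc14a1 lay in these 35 nuclei, 10 after nephrectomy and 2 after sham surgery. Plvap was at only 152 CPM in these nuclei. Subcluster 5, with 11 nephrectomy and 9 sham nuclei, carried tubule markers at median depths of 13292 UMIs after nephrectomy and 7270 UMIs after sham surgery. Subcluster 6, with 5 nephrectomy and 2 sham nuclei, carried fibroblast markers. These mixed subclusters are droplets or nuclei with RNA of more than one type, and they held 24.5% of the chosen nephrectomy UMIs and 13.4% of the chosen sham UMIs. Counts of genes are therefore also given over the 169 nephrectomy and 179 sham nuclei outside them.

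The 2 vein-like subclusters took opposite shares and together did not differ detectably: they held 28.1% (21.8 to 35.2) of the chosen nuclei after nephrectomy and 28.4% (22.1 to 35.4) after sham surgery, a difference of -0.313 points (-9.36 to 8.77). Subcluster 1 came to 20.5% after nephrectomy and 12.1% after sham surgery, a difference of 8.44 points (0.940 to 15.9), but its leading genes had a median ratio of 1.52 (0.794 to 4.43). The Reln subcluster, subcluster 3, came to 7.57% (4.199 to 12.4) of the chosen nuclei after nephrectomy and 16.3% (11.4 to 22.4) after sham surgery, a difference of -8.75 points (-15.4 to -2.16). Its leading genes were Nlgn1, a synaptic adhesion protein, at 4281 CPM against 80.8 CPM elsewhere, the guidance cues Sema3a and Ntn1, the adhesion protein Flrt2 and the metalloprotease Mmp11. Of the 146 UMIs of Reln, a secreted guidance glycoprotein, 141 lay in it, 62 from nephrectomy and 79 from sham nuclei. Among all chosen nuclei, Reln was found in only 9 after nephrectomy and 8 after sham surgery. A single nucleus held 18 of its 67 nephrectomy UMIs, and another held 36 of its 79 sham UMIs. Most of the 45 nuclei thus held no Reln UMI, while 35 held Nlgn1, and Reln serves only as a label for the subcluster. The lymphatic gene Prox1 was also raised there while Lyve1 was absent, so its nuclei were not named lymphatic. Inside the subcluster the leading genes had a median nephrectomy to sham ratio of 1.10 (0.633 to 1.98), so they too differed between the libraries, and a change in the number of such nuclei and a change in the genes that place them there cannot be told apart. The difference in share was -7.64 points when the nuclei were clustered more finely, and -10.5 points without nuclei rich in markers of other types. Both intervals of the shares overlap slightly, and with 45 nuclei in 2 libraries the difference speaks only for these captures.

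**Figure D2:**
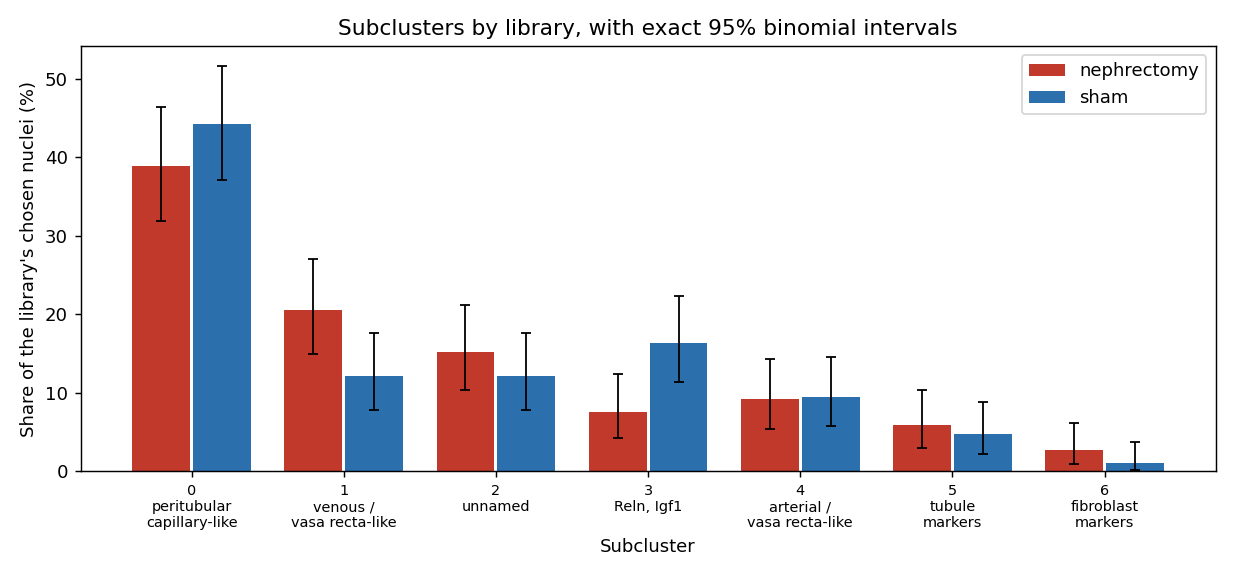
Share of the chosen nuclei in each subcluster, in percent, for the nephrectomy library and the sham library, as bars with exact binomial 95% intervals as whiskers. The Reln subcluster is at 7.57% after nephrectomy and 16.3% after sham surgery. The vein-like subcluster 1 stands in the opposite order, at 20.5% after nephrectomy and 12.1% after sham surgery.

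Several arterial genes were lower in the nephrectomy library. Over all chosen nuclei the 14 arterial markers summed to 638 CPM after nephrectomy and 976 CPM after sham surgery. Of the 8 with at least 50 UMIs, 5 were at least 1.5-fold lower and 0 were higher, where 8.93% of the 5747 genes with that many UMIs were lower and 9.97% were higher. Vegfc, a growth factor for vein and lymphatic endothelium that arteries secrete, had 43 UMIs (47.8 CPM) after nephrectomy and 68 UMIs (102 CPM) after sham surgery, a ratio of 0.466 (0.311 to 0.693). Jag1 had 40 UMIs (44.4 CPM) after nephrectomy and 61 UMIs (91.9 CPM) after sham surgery, a ratio of 0.484 (0.316 to 0.732). Mgp, an inhibitor of vessel calcification, had a ratio of 0.424 (0.242 to 0.726), Fbln5, an elastic fibre protein, 0.661 (0.458 to 0.9501), and Sox17 0.666 (0.456 to 0.972). These genes rest on few nuclei: Jag1 was found in 23 nephrectomy and 18 sham nuclei, Vegfc in 13 and 18. Without the nucleus richest in each gene in each library the ratio was 0.553 for Jag1, 0.435 for Vegfc, 0.567 for Mgp and 0.647 for Sox17, while Fbln5 no longer passed 1.5-fold at 0.681.

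Within subcluster 4 the arterial and the descending vasa recta markers stood in opposite order as lists. The arterial list summed to 126 UMIs (1876 CPM) in its nephrectomy nuclei and 281 UMIs (4840 CPM) in its sham nuclei, a ratio of 0.388 (0.312 to 0.480). Jag1 had 10 UMIs there after nephrectomy and 54 after sham surgery, Vegfc 7 and 49, and Mgp 2 and 26. Edn1, endothelin 1, stood the other way with 19 UMIs after nephrectomy and 10 after sham surgery, a ratio of 1.64 (0.726 to 3.95), and Hey1 had 4 and 1. The nitric oxide synthase gene Nos3 had 0 UMIs there after nephrectomy and 15 after sham surgery. The descending vasa recta list summed to 251 UMIs (3736 CPM) after nephrectomy and 168 UMIs (2894 CPM) after sham surgery, a ratio of 1.29 (1.06 to 1.58). Aqp1 had 54 UMIs (804 CPM) after nephrectomy and 8 UMIs (138 CPM) after sham surgery, with 21 of its 67 nephrectomy UMIs over all chosen nuclei in 1 nucleus. Scin, an actin-severing protein, had 19 UMIs there after nephrectomy and 5 after sham surgery. Slc6a6, the most abundant member, stood the other way, with 67 UMIs after nephrectomy and 95 after sham surgery, a ratio of 0.610 (0.439 to 0.842). The peritubular capillary list summed there to 117 UMIs (1742 CPM) after nephrectomy and 43 UMIs (741 CPM) after sham surgery. Its ratio was 2.35 (1.64 to 3.42). Igfbp5 held 60 and 12 of these UMIs after nephrectomy and sham surgery, Insr 22 and 21, and Npr3 0 and 1. The marker genes were left out of the clustering, but the arterial and vasa recta ones named the subcluster, so these values are a description. A different mix of arterial, vasa recta and capillary nuclei in the captures and a different level per nucleus cannot be told apart here.

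Other vessel markers, of which the rule used none but Ehd3, differed by type. Their counts stand beside 8.93% of all genes that were lower and 9.97% that were higher. Of the 5 peritubular capillary markers with at least 50 UMIs, 1 was lower and 0 higher, and outside the mixed subclusters their lowest ratio was 0.738. Igfbp3 had 580 UMIs (644 CPM) after nephrectomy and 438 UMIs (660 CPM) after sham surgery, a ratio of 0.977 (0.861 to 1.11). Igfbp5, the most abundant of them, had 1179 UMIs (1309.5 CPM) after nephrectomy and 1014 UMIs (1527 CPM) after sham surgery, a ratio of 0.858 (0.788 to 0.934), and Npr3 had 0.703 (0.563 to 0.877). Inside the capillary-like subcluster Npr3 was at 549 CPM after nephrectomy and 545 CPM after sham surgery, so its level there was nearly the same. Tll1, a metalloprotease raised in vein-like nuclei, had 832 UMIs (924 CPM) after nephrectomy and 485 UMIs (730 CPM) after sham surgery. Its ratio was 1.27 (1.13 to 1.42), and 1.19 without the nucleus richest in it in each library. In the capillary-like subcluster Tll1 had 276 UMIs after nephrectomy and 123 after sham surgery, a ratio of 2.52 (2.03 to 3.14). In subcluster 2 it stood the other way, with 79 and 102 UMIs, a ratio of 0.406 (0.299 to 0.550). Of the 7 measured glomerular endothelial markers 3 were higher and 2 lower, Lpl at 0.541 and the rule gene Ehd3 at 0.600, and the third higher one, Mapt, had 1.87. Cyp26b1, which breaks down retinoic acid, had 267 UMIs (297 CPM) after nephrectomy and 105 UMIs (158 CPM) after sham surgery, a ratio of 1.88 (1.49 to 2.37). It was higher in subclusters 0, 1, 2 and 4 but had 2 UMIs after nephrectomy and 8 after sham surgery in subcluster 3, and in the nuclei not chosen its ratio was 1.82. Ptprd, a receptor phosphatase, had 339 UMIs (377 CPM) after nephrectomy and 48 UMIs (72.3 CPM) after sham surgery, a ratio of 5.21 (3.84 to 7.20), and 4.45 outside the mixed subclusters. Ptprd stood at 1783 CPM after nephrectomy and 1797 CPM after sham surgery in the nuclei not chosen, where it is far more abundant, and 181 of its UMIs after nephrectomy and 21 after sham surgery lay in the mixed tubule subcluster. The part of RNA from those cells in the Ptprd ratio was not tested.

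Set beside the nuclei that were not chosen, the genes with the highest ratio in both libraries included Sema3d, a secreted semaphorin, at 229 CPM after nephrectomy and 224 CPM after sham surgery, 56.6 and 85.7 times its level in the other nuclei. Sox17 was 44.1 times higher after nephrectomy and 49.8 times higher after sham surgery. Klhl4, Crispld1, Dipk2b, Zfp366, Ccm2l, D5Ertd615e and Abi3 were also among the first 15. So was Rsad2, an interferon-induced antiviral enzyme, at 562 CPM after nephrectomy and 512 CPM after sham surgery, against 13.8 and 12.1 CPM in the other nuclei. Adgrl4, Cdh5, Plvap and Flt1, also among the first 15, were genes of the rule. Some endothelial nuclei are among those not chosen, so these ratios do not set endothelium against other cell types alone.

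Against the few glomerular endothelial nuclei that met the same rule apart from Ehd3, 13 after nephrectomy and 8 after sham surgery, the extraglomerular nuclei differed in the same direction in both libraries in several genes. Igfbp3 was at 644 CPM after nephrectomy and 660 CPM after sham surgery, 4.33 and 4.28 times its glomerular level. Ednrb, the endothelin B receptor, was 4.12 times higher after nephrectomy and 4.14 times higher after sham surgery. Egfem1 had no UMI in the glomerular nuclei, so it was at least 8.21-fold higher after nephrectomy and at least 5.10-fold higher after sham surgery, against a floor of 3 UMIs per library. On the other side, Plat, tissue plasminogen activator, was at 192 CPM after nephrectomy and 152 CPM after sham surgery, against 1761 and 1311 CPM in the glomerular nuclei. Sema5a was at 96.6 CPM after nephrectomy and 51.2 CPM after sham surgery, against 1302 and 2108 CPM there. Ifi44, Ly6a, Phactr1, Ccdc85a, Slit3 and Rassf3 were higher in the extraglomerular nuclei too, and Tbx3, Erc2 and Ppara lower. Agbl1, Hnf4aos, Slc16a9 and Kcnma1 were lower as well but had 0 UMIs in the sham glomerular nuclei, so their order rests on the nephrectomy library.

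Between the libraries, 5747 genes had at least 50 UMIs over the chosen nuclei. Of these, 573 (9.97%) were at least 1.5-fold higher and 513 (8.93%) at least 1.5-fold lower in the nephrectomy library. Outside the mixed subclusters 316 of 4772 genes (6.62%) were higher and 382 (8.01%) lower. Of the 573, 364 stayed past the fold without the mixed subclusters, and of the 513, 378 did. Of the genes that were higher, 217 (37.9%) were at least as high in the chosen nuclei as in the other nuclei of the nephrectomy library, and of those that were lower, 402 (78.4%) were at least as high as in the other sham nuclei. The higher genes were thus more often genes that other kidney cells express more strongly.

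Gene span moved with these ratios. Span is the distance from the first to the last annotated base of a gene, introns included. The genes were divided into 4 equal groups by span. Of the group with the shortest span, 0.690 to 22.7 kb, 4.38% were at least 1.5-fold higher and 17.6% lower in the nephrectomy library. Of the group with the longest span, 100 to 2961 kb, 18.5% were higher and 3.97% lower. The nuclei that were not chosen showed the same order, with 13.3% of the shortest genes lower and 7.79% of the longest genes higher. Mitochondrial genes came to 1.04% of the chosen nephrectomy UMIs and 1.34% of the sham UMIs, and ribosomal protein genes to 0.981% and 1.05%. The part of span and of RNA composition in single ratios was not tested, and list medians are given below also after subtraction of the median of genes of like span.

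**Figure D3:**
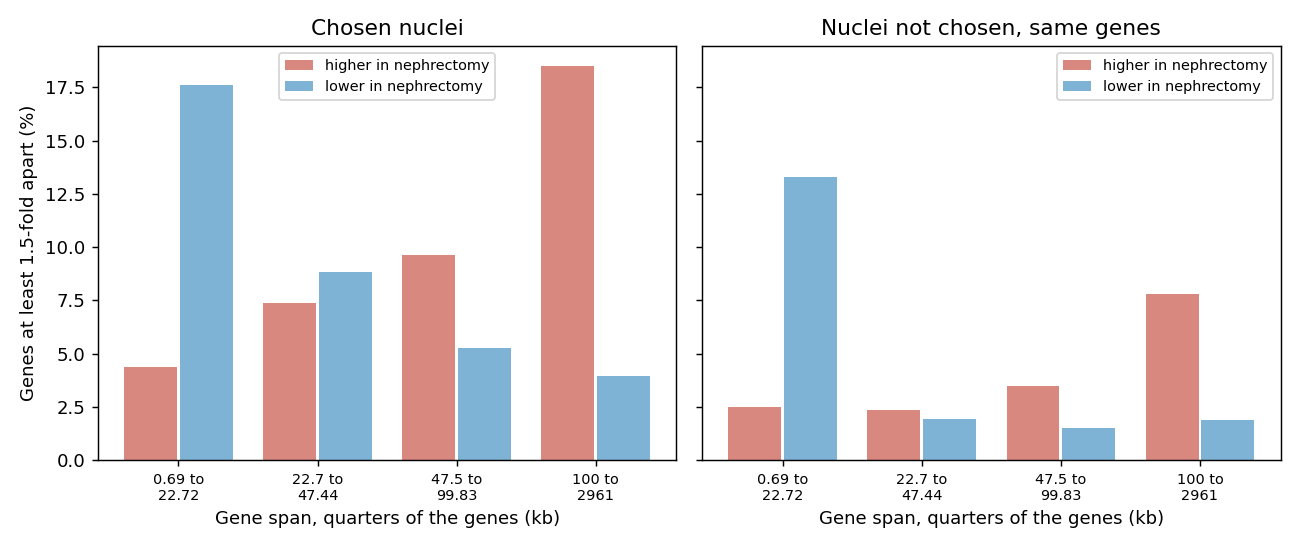
Percent of genes at least 1.5-fold higher and at least 1.5-fold lower in the nephrectomy library than in the sham library, by 4 equal groups of gene span in kb, in the chosen nuclei (left) and for the same genes in the nuclei not chosen (right). Among the chosen nuclei 17.6% of the shortest genes are lower and 18.5% of the longest are higher.

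The genes named here are the 12 furthest apart in each direction among genes found in at least 20 nuclei, with no nucleus holding over 20% of the UMIs and a level no lower than in other nuclei. Among those higher after nephrectomy, Ube2z (chr11:96047432-96065388, GRCm38, minus strand), a ubiquitin-conjugating enzyme, had 44 UMIs (48.9 CPM) after nephrectomy and 12 UMIs (18.1 CPM) after sham surgery, a ratio of 2.70 (1.40 to 5.63). Map3k20 (chr2:72285637-72442610, plus strand), a kinase of the ribosome stress response, had 92 UMIs (102 CPM) after nephrectomy and 27 UMIs (40.7 CPM) after sham surgery, a ratio of 2.51 (1.62 to 4.02). Maoa, monoamine oxidase A, had 39 and 12 UMIs in the nephrectomy and sham libraries, a ratio of 2.40. These 3 genes were past the fold under all the settings in which they could be computed. Flna, an actin crosslinker, had 45 UMIs after nephrectomy and 15 after sham surgery, a ratio of 2.21 (1.21 to 4.27). The AP-1 subunit gene Fosl2 had a ratio of 2.16, the mitochondrial fusion gene Miga1 2.67, the nuclear pore gene Nup205 2.496 and the chromatin reader L3mbtl3 2.44. Arl6ip6, Cbwd1, Zfp948 and Mtmr1 lay between 2.14 and 2.69. In the nuclei that were not chosen the same 12 genes had ratios of 0.88 to 1.64. Their intervals at the chosen nuclei are wide, since none had over 119 UMIs in both libraries together.

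Among the genes that were lower after nephrectomy, Eln (chr5:134702593-134747323, minus strand), elastin, the core of elastic fibres in artery walls, had 28 UMIs (31.1 CPM) after nephrectomy and 74 UMIs (111 CPM) after sham surgery, a ratio of 0.279 (0.174 to 0.436). In subcluster 4 it had 12 UMIs (179 CPM) after nephrectomy and 37 UMIs (637 CPM) after sham surgery. In the nuclei that were not chosen it had 165 UMIs after nephrectomy and 61 after sham surgery, a ratio of 2.03. Eln thus stood in opposite order inside and outside the chosen nuclei. Slco1a4, an organic anion transporter, had 18 UMIs after nephrectomy and 44 after sham surgery, a ratio of 0.302, and 15 and 34 of them lay in the Reln subcluster. The metalloprotease Adam12 had 26 UMIs after nephrectomy and 60 after sham surgery, a ratio of 0.320. Of these, 2 and 24 lay in the Reln subcluster and 15 and 18 in the fibroblast-marked subcluster 6. Within the Reln subcluster Slco1a4 was at 239 CPM after nephrectomy and 371 CPM after sham surgery, and Adam12 at 31.9 and 262 CPM. The part of subcluster size in these ratios was not tested. Ifitm2, an interferon-induced membrane protein, had 49 UMIs (54.4 CPM) after nephrectomy and 93 UMIs (140 CPM) after sham surgery, a ratio of 0.389 (0.269 to 0.555). Fxyd5, a sodium pump subunit, had a ratio of 0.332, the chaperonin subunit Cct7 0.319 and the galactosyltransferase B4galt4 0.339. Hspb1, Ier5 and Hikeshi, which belong to the heat shock and immediate early response, had ratios of 0.377 to 0.390.

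Kcnrg (chr14:61607457-61612826, plus strand) had the lowest ratio, 0.252, with 13 UMIs after nephrectomy and 38 after sham surgery, and Lysmd4 had 0.341. Both overlap an annotated gene on the opposite strand, Kcnrg the whole of its 5370 bases with Dleu2 and Lysmd4 with Mef2a. The strand setting of the counting is not given in the sources used here, so these 2 values are uncertain.

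**Figure D4:**
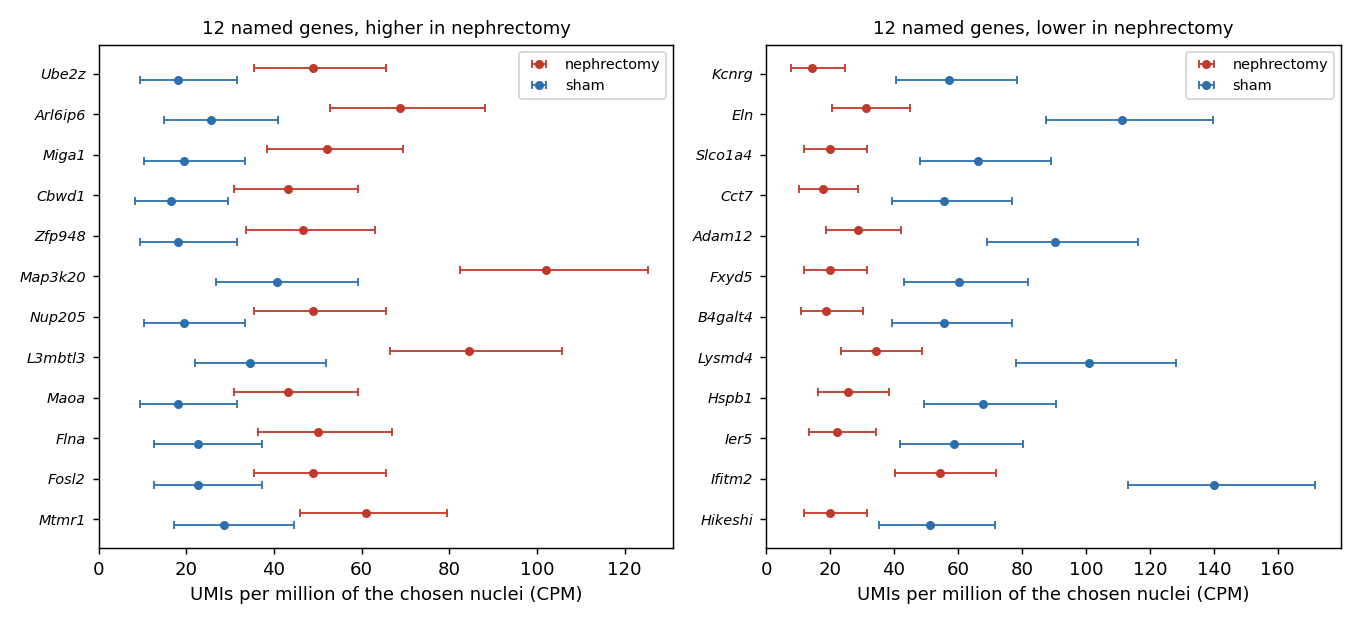
Levels in CPM of the 12 named genes that were higher (left) and the 12 that were lower (right) after nephrectomy, with nephrectomy points drawn above sham points and exact Poisson 95% intervals as horizontal lines. Map3k20 is at 102 CPM after nephrectomy and 40.7 CPM after sham surgery, and Eln at 31.1 CPM after nephrectomy and 111 CPM after sham surgery.

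Several genes that set vascular tone were lower after nephrectomy. Of 11 vasoactive genes with at least 50 UMIs, 5 were at least 1.5-fold lower and 0 higher, against 8.93% and 9.97% of all genes, and their median log2 ratio was -0.51, where that of all genes was -0.01. In the nuclei that were not chosen the median of the same genes was 0.14. The 5 lower genes were also the only members in the group with the shortest span, of which 17.6% of genes were lower. The part of span in their ratios was not tested. Npr1 (chr3:90450591-90465866, minus strand), the receptor for atrial natriuretic peptide, had 81 UMIs (90.0 CPM) after nephrectomy and 109 UMIs (164 CPM) after sham surgery, a ratio of 0.548 (0.406 to 0.737). Ramp2, which makes the adrenomedullin receptor together with Calcrl, had 94 UMIs (104 CPM) after nephrectomy and 126 UMIs (190 CPM) after sham surgery, a ratio of 0.550 (0.417 to 0.725). Nos3, endothelial nitric oxide synthase, had 36 and 48 UMIs in the nephrectomy and sham libraries, a ratio of 0.553 (0.349 to 0.870). The prostaglandin synthase Ptgs1 had a ratio of 0.599 (0.407 to 0.878) and Ramp3 0.665 (0.487 to 0.906). Calcrl itself was at 750 CPM after nephrectomy and 887 CPM after sham surgery, a ratio of 0.845, and Ednrb had the highest ratio, 1.28 (1.08 to 1.52).

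By subcluster, Npr1 had its lowest ratios in the vein-like ones, with 134 CPM after nephrectomy and 262 CPM after sham surgery in subcluster 1 and with 128 and 316 CPM in subcluster 3. In the capillary-like subcluster it had 99.9 CPM after nephrectomy and 145 CPM after sham surgery. Ramp2 had a ratio below 1 in all 7 subclusters, from 0.144 (0.0157 to 0.647) in subcluster 4, on 2 UMIs after nephrectomy and 12 after sham surgery, to 0.918 in subcluster 5. Nos3 was at 77.2 CPM after nephrectomy and 80.8 CPM after sham surgery in the capillary-like subcluster, against 0 and 15 UMIs in subcluster 4. Differences between subclusters were not tested. Without the mixed subclusters the list still had 5 lower members and a median of -0.40, and after subtraction of genes of like span 4 lower members and a median of -0.48.

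**Figure D5:**
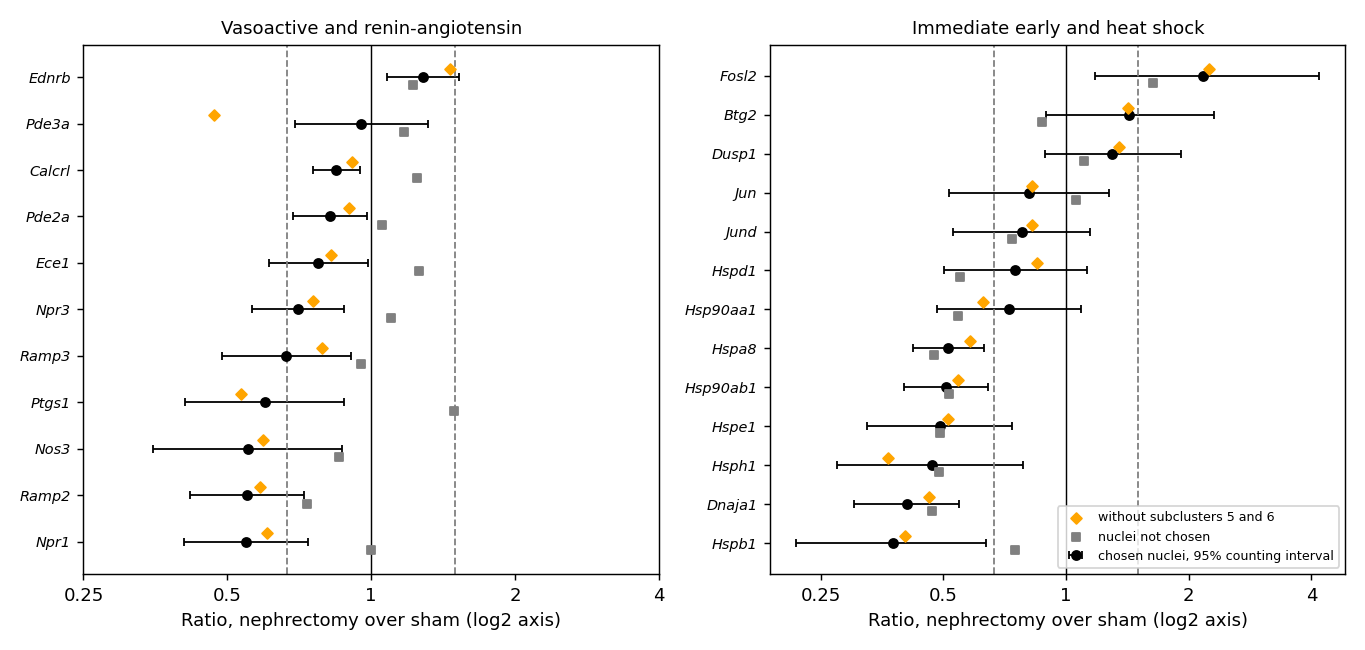
Ratio of nephrectomy to sham for each gene with at least 50 UMIs of the vasoactive list and of the heat shock list, in separate panels. Each gene is shown by its ratio in the chosen nuclei with its counting interval. Its ratios without the mixed subclusters and in the nuclei not chosen are also drawn. The median log2 ratio of the vasoactive list is -0.51 in the chosen nuclei and 0.14 in the others. That of the heat shock list is -0.47 in the chosen nuclei and -0.86 in the others.

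Several heat shock genes, which encode chaperones, were lower after nephrectomy in endothelium. Of 13 heat shock and immediate early genes, 6 were at least 1.5-fold lower and 1, Fosl2, higher, where 8.93% of all genes and 17.6% of those of shortest span were lower. The median log2 ratio was -0.47. In the nuclei that were not chosen the median was -0.86. Hspa8, the constitutive HSP70 of the cytosol, had 171 UMIs (190 CPM) after nephrectomy and 245 UMIs (369 CPM) after sham surgery, a ratio of 0.515 (0.421 to 0.628). Dnaja1 (chr4:40722150-40737149, plus strand), an HSP40 partner of HSP70, had 73 UMIs (81.1 CPM) after nephrectomy and 132 UMIs (199 CPM) after sham surgery, a ratio of 0.408 (0.302 to 0.547). Hsp90ab1 had a ratio of 0.508 (0.401 to 0.642), and Hspe1 and Hsph1 had ratios of 0.492 and 0.468. Of the 13 genes 12 were in the group with the shortest span, and the median was -0.21 after subtraction of genes of like span and 0.08 after subtraction of the same genes' log2 ratios in the other nuclei. As a list, the heat shock genes therefore differed no more in these nuclei than in the nuclei not chosen.

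Promoters of 3 lower heat shock genes are shown because they carry the letters GAANNTTC, 2 facing GAA units of the heat shock element that heat shock factors bind. Each is the 250 bases before the RefSeq start on the plus strand of GRCm38.p6, with matches to GAANNTTC, which reads the same on both strands, in capitals. Hspe1 is chr1:55087898-55088147, Dnaja1 chr4:40722218-40722467 and Hspb1 chr5:135887669-135887918.
Hspe1: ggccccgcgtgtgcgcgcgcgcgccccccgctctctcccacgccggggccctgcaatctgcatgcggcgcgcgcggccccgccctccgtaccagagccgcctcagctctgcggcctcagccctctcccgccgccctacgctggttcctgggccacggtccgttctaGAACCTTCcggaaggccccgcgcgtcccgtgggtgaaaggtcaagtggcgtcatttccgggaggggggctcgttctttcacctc
Dnaja1: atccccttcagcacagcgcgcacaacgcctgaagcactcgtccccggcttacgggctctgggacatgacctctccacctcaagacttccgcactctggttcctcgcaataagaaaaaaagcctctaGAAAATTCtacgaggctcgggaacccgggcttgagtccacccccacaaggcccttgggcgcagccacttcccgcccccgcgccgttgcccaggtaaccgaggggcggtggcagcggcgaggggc
Hspb1: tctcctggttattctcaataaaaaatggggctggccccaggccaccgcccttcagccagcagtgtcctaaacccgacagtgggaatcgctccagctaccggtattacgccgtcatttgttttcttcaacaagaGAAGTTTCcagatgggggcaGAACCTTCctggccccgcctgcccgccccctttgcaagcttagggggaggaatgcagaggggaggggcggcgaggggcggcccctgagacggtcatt
The match lies 84 to 77 bases before the start in Hspe1, 124 to 117 in Dnaja1, and 117 to 110 and 97 to 90 in Hspb1. Of the 13 measured members, 10 had a promoter in the RefSeq table. GAANNTTC was in 5 of these, the 3 shown, Fosl2, which was higher, and Jun, which was between the limits, against 6.69% of 32851 promoters of this length. Where a gene had several promoters in that table, only the first was read, while the 6.69% covers all of them. Hsph1, which was lower and had 2 promoters, had no match in its first. A match is a description of letters and not of binding.

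Among genes that respond to blood flow and to BMP ligands, the shares that were lower stood beside 8.93% of all genes and 17.6% of the genes of shortest span. Klf2 (chr8:72319033-72321656, plus strand), a transcription factor induced by laminar flow, had 110 UMIs (122 CPM) after nephrectomy and 175 UMIs (264 CPM) after sham surgery, a ratio of 0.464 (0.362 to 0.592). It was lower in the capillary-like subcluster too, with 191 CPM after nephrectomy and 359 CPM after sham surgery. Of the 17 flow genes 2 were lower, Klf2 and Nos3, and 0 higher, and 9 of them are in the shortest-span group. Id1, a target of BMP9 signalling in endothelium, had 74 UMIs (82.2 CPM) after nephrectomy and 125 UMIs (188 CPM) after sham surgery, a ratio of 0.437 (0.323 to 0.587), and Id3 had 0.509 (0.378 to 0.682). Of the 23 genes of BMP and TGF-beta signalling 4 were lower, the others being Skil and Smad2, and 0 were higher. Outside the mixed subclusters 3 of 15 flow genes and 5 of 22 BMP and TGF-beta genes were lower. The receptor genes Acvrl1, Eng and Bmpr2 had ratios of 0.82, 0.79 and 1.01. Klf2, Id1 and Id3 are short genes, and in the nuclei that were not chosen their ratios were 0.69, 0.72 and 0.72.

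Genes of VEGF, angiopoietin and Notch signalling were mostly between the limits. Counts in this paragraph stand beside 8.93% of all genes that were lower and 9.97% that were higher. Of 24 VEGF, angiopoietin and TIE genes 4 were lower and 1 higher, with a median log2 ratio of -0.19. Besides Vegfc, these were the netrin receptor Unc5b (0.553), Angpt2 (0.571, 0.321 to 1.01) and the tip cell gene Esm1, which had 225 UMIs (250 CPM) after nephrectomy and 267 UMIs (402 CPM) after sham surgery. Vegfa had a ratio of 1.54, but 26 of its 71 nephrectomy UMIs lay in 1 nucleus, and with each nucleus weighted alike it was 0.878. The receptors Kdr and Tek were rule genes. Of 11 Notch genes 1 was lower, Jag1, and Dll4 and Notch1 had ratios of 0.89 and 0.88. Among 23 endothelial transcription factors 3 were lower, Sox18 (0.561), Bcl6b and Sox17, and 0 higher. Outside the mixed subclusters 0 were lower and 1 higher, and after subtraction of genes of like span 0 were lower. Erg and Fli1 had ratios of 0.92 and 1.09.

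Barrier and transport genes showed few differences, beside 8.93% of all genes that were lower and 9.97% that were higher. Of 21 junction genes, Icam2, an adhesion molecule of junctions, was lower with a ratio of 0.492 (0.331 to 0.724), and Pard3 and Cgnl1 were higher, though 0 of 20 were higher outside the mixed subclusters. Of 10 genes of caveolae and fenestrae, Cavin2 was lower at 0.54 and Aqp1 higher at 2.15 (1.32 to 3.62), while Cav1 had 0.70. Of 13 coagulation genes 2 were lower, Adamts1 and S100a10, and Plat had 1.26 (0.983 to 1.63). Of 9 measured genes for solute and water transport in vasa recta 1 was higher, Aqp1, and 0 lower. Slc6a6, the taurine carrier, had 0.817.

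Immune genes went both ways. Of 36 antigen presentation and interferon response genes 2 were higher and 6 lower, where 9.97% and 8.93% of all genes were. Outside the mixed subclusters 3 were higher and 3 lower, and the same counts held after subtraction of genes of like span. The list had a median log2 ratio of -0.18, which was 0.05 after that subtraction. Iigp1, an interferon-inducible GTPase, had 212 UMIs (235 CPM) after nephrectomy and 92 UMIs (139 CPM) after sham surgery, a ratio of 1.70 (1.32 to 2.20). In the nuclei that were not chosen its ratio was 2.05 at a level of 10.8 CPM after nephrectomy and 5.28 CPM after sham surgery. Bst2, which tethers budding viruses, had a ratio of 0.538 (0.396 to 0.727), Gbp3 0.533 (0.309 to 0.907), and Rsad2 1.10. Interferon genes therefore did not move together in these nuclei. Among 13 genes of leukocyte adhesion, Birc3, an NF-kB target, had 45 UMIs after nephrectomy and 16 after sham surgery, a ratio of 2.07 (1.15 to 3.93). The adhesion receptor Vcam1 had 45 and 26 UMIs in the nephrectomy and sham libraries, a ratio of 1.28 (0.771 to 2.16), and Icam1 0.71.

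Matrix genes of the basement membrane were mostly between the limits. Of 25 measured genes 5 were lower, Eln, Emilin1, Tnxb, Lama3 and Sparcl1, and 1 was higher, Col18a1. Among all genes 8.93% were lower and 9.97% higher. Outside the mixed subclusters 4 of 23 were lower and 1 higher. After subtraction of genes of like span 4 of 25 were lower and 1 higher. Lama3 had 142 UMIs after nephrectomy and 173 after sham surgery, a ratio of 0.605 (0.481 to 0.760). Col18a1, the source of endostatin, had 50 UMIs after nephrectomy and 22 after sham surgery, a ratio of 1.68 (0.997 to 2.91). The collagen IV chain genes Col4a1 and Col4a2, which lie head to head, had ratios of 0.777 (0.661 to 0.915) and 1.15 (0.961 to 1.39). Of the 23 genes listed for endothelial to mesenchymal transition only Zeb1, Zeb2 and Tgfb2 had 50 UMIs, with ratios of 0.94 to 0.97, so the others were too low to compare.

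Csgalnact1 (chr8:68356781-68735146, minus strand), which adds the first N-acetylgalactosamine of a chondroitin sulfate chain, was strongly expressed in these nuclei and differed little between the libraries. It had 728 UMIs (809 CPM) after nephrectomy and 492 UMIs (741 CPM) after sham surgery, a ratio of 1.09 (0.972 to 1.23). That was 8.10 times its level in the other nuclei after nephrectomy and 6.45 times after sham surgery. It was highest in the Reln subcluster, at 1755 CPM after nephrectomy and 1701 CPM after sham surgery, and among the unmixed subclusters it was lowest in the arterial and vasa recta one, at 476 CPM after nephrectomy and 344 CPM after sham surgery. In vein-like subcluster 1 it had 197 UMIs (1059 CPM) after nephrectomy and 63 UMIs (612 CPM) after sham surgery, a ratio of 1.73 (1.30 to 2.34). This was the one subcluster outside the mixed ones whose interval did not include 1, and it was singled out after its values were seen. Of 14 measured genes of chondroitin sulfate chains and versican partners 2 were lower, the protease Adamts1 and the hyaluronidase Hyal2, and 0 higher. Among all genes 8.93% were lower and 9.97% higher. The sulfotransferase Chst15 had 77 UMIs after nephrectomy and 42 after sham surgery, a ratio of 1.35 (0.917 to 2.02), and Csgalnact2 0.738 (0.412 to 1.32). Versican itself, Vcan, had 1 UMI after nephrectomy and 2 after sham surgery, so nothing can be said of it in endothelium at this depth.

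Metabolic and growth factor genes held several that depended on single or mixed nuclei. The list counts here stand beside 9.97% of all genes that were higher and 8.93% that were lower. Ghr, the growth hormone receptor, had 970 UMIs after nephrectomy and 266 after sham surgery, a ratio of 2.69 (2.35 to 3.09), but 432 of the nephrectomy UMIs lay in 1 nucleus and the ratio outside the mixed subclusters was 1.43. Grb14, an adaptor that dampens insulin receptor signalling, had 44 UMIs after nephrectomy and 12 after sham surgery, of which 34 and 10 lay in the mixed tubule subcluster. Igf1 had 184 UMIs (204 CPM) after nephrectomy and 78 UMIs (117 CPM) after sham surgery, a ratio of 1.74 (1.33 to 2.30), and 2.23 outside the mixed subclusters. It lay in the vein-like subclusters, with 117 UMIs after nephrectomy and 11 after sham surgery in subcluster 1. Of 20 fatty acid genes 4 were higher and 2 lower, and outside the mixed subclusters 3 of 16 were higher and 0 lower. Acsl4 had a ratio of 1.91, with 34 of 101 nephrectomy UMIs in 1 nucleus, and the cholesterol exporter Abca1 had 1.57 (1.15 to 2.15). The fatty acid carrier Cd36 had 0.656 (0.513 to 0.838), and in the other nuclei 0.51, but it no longer passed 1.5-fold outside the mixed subclusters. Of 18 glycolysis and hypoxia genes 2 were higher, Vegfa and Hk1, and 2 lower, the prolyl hydroxylases P4ha1 at 0.465 (0.329 to 0.653) and Egln1 at 0.546. Heparan sulfate genes included 1 of 13 that was higher, Gpc4, at 2.29, which was 0.85 outside the mixed subclusters.

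Trp53inp1 (chr4:11156431-11174379, plus strand), a stress-induced target of p53, had the highest ratio among the members of all lists. It had 48 UMIs (53.3 CPM) after nephrectomy and 8 UMIs (12.05 CPM) after sham surgery, a ratio of 4.43 (2.08 to 10.8). The UMIs lay in 33 nephrectomy nuclei and 8 sham nuclei, and no nucleus held more than 5. Thinned to 1000 UMIs each, 4.32% of nephrectomy nuclei and 0.526% of sham nuclei held one. In the nuclei that were not chosen it was at 82.0 CPM after nephrectomy and 56.9 CPM after sham surgery, a level above that of the chosen nuclei. Of 6 measured cell cycle and senescence genes Plk2 was also higher, with 50 UMIs after nephrectomy and 18 after sham surgery. Its ratio was 2.05 (1.17 to 3.73), and Ccnd1 was lower at 0.58. Over all genes 9.97% were higher and 8.93% lower. Among 16 clock and glucocorticoid genes, Cry2 was higher at 2.02 (1.09 to 3.92) and Per2 at 1.61 (0.870 to 3.12), and Arntl was lower at 0.541 (0.358 to 0.812). In the other nuclei these 3 had ratios of 1.52, 1.20 and 0.61, in the same order. The time of day at which kidneys were taken is not given in the labels.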

How the data were processed

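Nuclei of 1 nephrectomy and 1 sham kidney library were compared. The authors deposited whole-number UMI counts per gene and barcode, not normalized. They were made with Cell Ranger 7.1.0 against mm10 per the submitters' processing notes, while the file headers name 7.0.1. No cell annotation was used here. Counts were summed over the chosen nuclei of a library and given as CPM. Exact Poisson, Clopper-Pearson, conditional binomial (ratios) and Newcombe (differences of shares) 95% intervals cover counting error only.

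The members, marker lists and gene lists were chosen with earlier results of these data known. Genes with at least 50 UMIs were measured, and at least 1.5-fold either way was counted as higher or lower. Counts under 3 were set to 3 for ratios of named genes. Named were the 12 furthest apart each way (found in 20 or more nuclei, none holding over 20% of UMIs, level no lower than in other nuclei, no predicted gene, no rule gene), all rule and marker genes, Csgalnact1, Vcan, the 2 highest and 2 lowest members of each of 22 lists, the first 15 genes against other nuclei and 10 each way against glomerular nuclei; 1 of these genes is not reported here. Further list members that are printed were chosen after their values were seen.

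Subclusters used 1000 variable genes outside the marker lists, gene lists, rule genes, mitochondrial genes and ribosomal protein genes. They used 15 components, 15 neighbours and Leiden resolution 0.5. Doublets were left in, with a doublet score as an alternative. The alternatives changed the limits of the rule, depth (thinning to 1000 UMIs), the UMI minimum, free RNA, scaling (TMM) and the nuclei included. Those on mixed subclusters, gene span, the ratio in other nuclei and resolution 1 were chosen after seeing the data. Scripts were tested on simulated data. Gene spans and positions come from GENCODE on GRCm38 and promoters from RefSeq. Python 3.11.15, numpy 2.4.6, scipy 1.17.1, pandas 2.3.3, scanpy 1.11.5, leidenalg 0.10.2, R 4.3.3 and edgeR 4.0.16 were used.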

Additional observations from a re-analysis of the deposited data

Results flagged for a closer look

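Eln, elastin, stood in opposite order in the 2 sets of nuclei: its ratio of nephrectomy to sham was 0.279 in the chosen endothelial nuclei and 2.03 in the nuclei that were not chosen. Gbp3, an interferon-inducible GTPase, likewise had a ratio of 0.533 in the chosen nuclei and 1.53 in the others. Each set has 1 library per operation, and these differences between the sets were not tested.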

How the results depend on the processing

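No paired analysis was possible because each operation has 1 library. The difference in the share of nuclei chosen was -0.795 points and moved to 1.15 points without nuclei rich in markers of another type. It stayed below 0 under the other 8 settings. The count of higher genes, 573, was 140 in nuclei with no proximal tubule UMIs, 360 without nuclei rich in markers of another type, 972 after thinning, 1231 and 247 with at least 20 and 100 UMIs per gene, 881 with free RNA taken out, 166 in the largest subcluster alone and 316 without the mixed subclusters. The count of lower genes, 513, was 151 in nuclei with no proximal tubule UMIs, 302 without nuclei rich in markers of another type, 1017 after thinning, 1170 and 196 with at least 20 and 100 UMIs, and 152 in the largest subcluster. Fewer nuclei, fewer UMIs or another minimum change how many genes are measured, and the cause was not tested further.

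Of single genes, S100a10 was 1.68 in nuclei with no proximal tubule UMIs, Bcl6b 1.06 in nuclei with no Ehd3 UMI, Vegfa 0.878 with nuclei weighted alike and 0.411 after thinning, and, relative to the ratio in other nuclei, Iigp1 was 0.829 and Cd36 1.28. The vasoactive median stayed between -0.66 and -0.27 on the log2 scale and the heat shock median between -0.99 and 0.08. Of the 24 named genes, L3mbtl3 lost the fold in 1 of 16 settings and Fosl2 in 1 of 14, and the others kept it in all settings with enough UMIs. With 1 library per operation no setting shows how animals vary, and genes with under 100 UMIs have intervals that are wide.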
